A study of Mus musculus with 5 samples.

Results

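The cells described here are tumour epithelial cells with the highest joint level of 5 transcripts, Ly6d, Tspan8, Clic6, Tfcp2l1 and Hey1. They were chosen in mouse PyMT mammary tumours, in which the polyoma middle T oncogene drives luminal-type mammary carcinomas. A cell counted as epithelial when Krt8, Krt18 and Epcam together gave at least 15 UMIs per 10000 UMIs of the cell, a UMI (unique molecular identifier) standing for 1 captured RNA molecule. Each epithelial cell received a score, the mean over the 5 markers of the natural log of 1 plus its UMIs per 10000, and the cells above the 90th percentile of their own library became members. The rule gave 1097 members among 10959 epithelial cells (10.0%) and 15958 cells in all. Because the rule fixes the share at 10% in each library, the number of members says nothing about how common such cells were.

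The study compared single-cell RNA-seq platforms on digested PyMT tumours enriched for viable cells. Fresh 10x 1 and fresh 10x 2 were fresh digests on the 10x Genomics 3' v2 droplet system. Stored 10x was a digest kept overnight at 4 °C (24 h in its title) before the same assay, with a viability loss of at least 20% required by the protocol. BD 1 was a fresh digest on BD Rhapsody, a microwell system, and BD 2 came from the same system, with a title that says fresh and deposited files named for 24 h, so no storage state was assigned to it. All 5 carry the same tumour model and no other treatment, and the labels name neither the animals nor their age, sex or strain. No label says that 2 libraries came from separate tumours, so the tests below measure the spread between libraries, which may be technical.

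The libraries held 1396 to 2971 epithelial cells and 29166129 to 59957945 UMIs. Members numbered 140, 143, 297, 253 and 264 in fresh 10x 1, fresh 10x 2, stored 10x, BD 1 and BD 2. The 10x libraries shared 1 to 5 cell barcodes pairwise, the BD libraries shared 24, and no barcode was shared across platforms. Members were shallower than the other epithelial cells of each library, with medians of 9887 to 11136 UMIs per cell against 11082.5 to 14150. Members also had a lower median mitochondrial share in each library, from 5.89% against 6.74% in fresh 10x 1 to 17.4% against 19.6% in BD 2. Whether depth or cell quality had a part in the differences below was not tested as a cause, and members were also chosen within 10 depth classes of each library. Counts of gene lists that changed by over 1.5 times in that comparison are given beside the list.

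Mammary epithelium has an outer basal layer and an inner luminal layer, and luminal cells range from progenitors and milk-making alveolar cells to hormone-sensing cells. Ly6d is a small surface protein held by a lipid anchor, and Tspan8 is a tetraspanin, a membrane protein that organises other surface proteins. Clic6 belongs to the chloride intracellular channel family, Tfcp2l1 is a transcription factor of the CP2 family, and Hey1 is a transcriptional repressor that Notch signalling switches on. Notch receptors on 1 cell bind Delta-like or Jagged ligands on a neighbour, and the pathway steers luminal fate in the mammary gland.

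The 5 markers had the following levels, given as CPM, the UMIs of a gene per 1000000 UMIs summed over the cells of a library. The members were selected on these values, which are a description without a test. Ly6d stood at 1078, 1318, 640, 397 and 445 CPM in the members of fresh 10x 1, fresh 10x 2, stored 10x, BD 1 and BD 2. The other epithelial cells held 20.1 to 48.1 CPM of Ly6d. Members were high in every library, and the members of both BD libraries lay below those of the 3 10x libraries.

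Tspan8 stood at 473, 1098, 434, 358 and 378 CPM in the members of fresh 10x 1, fresh 10x 2, stored 10x, BD 1 and BD 2. It stood at 57.7 to 179 CPM in the other epithelial cells. Fresh 10x 2 was the highest library in both kinds of cell. Clic6 was more even, at 417, 515, 422, 579 and 510 CPM in members in the same order against 116 to 148 CPM in the other cells. Tfcp2l1, the scarcest marker, stood at 70.8, 102, 86.6, 137 and 127 CPM against 17.1 to 22.0 CPM. Hey1 had the opposite order to Ly6d, with 264, 252 and 362 CPM in the 10x members and 625 and 536 CPM in the BD members, against 102 to 204 CPM in the other cells.

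**Figure D1:**
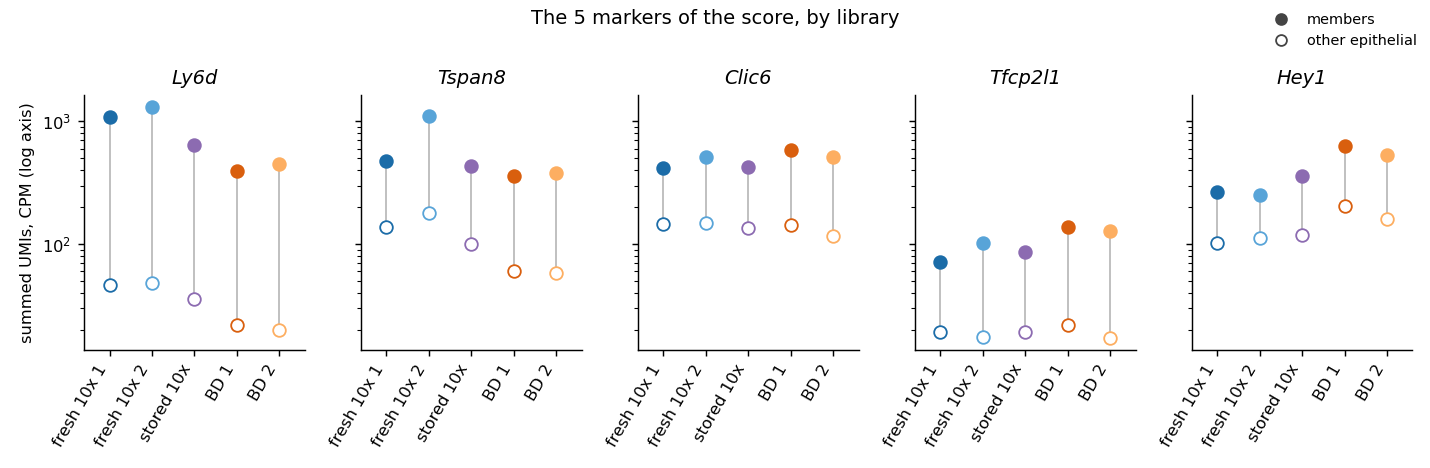
Summed UMIs of each marker in CPM (log axis) for members (filled) and other epithelial cells (open) of the 5 libraries, joined by a line per library. Ly6d was lowest in the BD members (397 and 445 CPM) and Hey1 highest there (625 and 536 CPM).

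The label of the cells held in part. In fresh 10x 2, 74.8% of members had a UMI of both Ly6d and Tspan8, and in fresh 10x 1 57.9% had both. The shares were 52.2%, 38.3% and 35.6% for stored 10x, BD 1 and BD 2. Members with neither numbered 0 to 14 per library. Ly6d, with or without Tspan8, was seen in 45.1% of the BD 2 members (exact 95% binomial interval 39.0 to 51.3, counting error only). In fresh 10x 2 it was seen in 79.0% of members (71.4 to 85.4). Clic6 was the marker shared most widely, in 96.4% to 99.3% of members per library. Of the epithelial gate genes, Krt8 was nearly level, at 690 to 1536 CPM in members and 662 to 1559 CPM in the other cells. Krt18 was above the other cells in all 5 libraries, at 851 to 2418 CPM against 644 to 1886.5 CPM, and so was Epcam, at 1786 to 2353 CPM against 1610 to 2089.8 CPM.

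Most members reached the cut through several markers. Between 0% and 4.38% of the members of a library had UMIs of only 2 markers, and 14.8% to 34.3% had UMIs of all 5. Among the other epithelial cells, 0.338% to 2.87% had all 5, and between 10.99% and 17.4% had none. The cut lay between 0.967 and 1.14 score units, and it fell on a continuous slope: 175 members lay within 0.05 above it and 214 non-members within 0.05 below it. The lowest member of fresh 10x 1 scored 1.00283 and the highest non-member 1.00258. The score thus had no gap at the cut. A cut at a fixed percentile cannot show whether some of the members form a separate cluster.

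Which marker stood highest in a member differed between libraries. Ly6d led in 47.1% of the members of fresh 10x 1, 36.4% of fresh 10x 2, 32.7% of stored 10x, 23.3% of BD 1 and 24.2% of BD 2. Tspan8 led in 34.3%, 47.6%, 28.3%, 15% and 15.5% in the same order. Hey1 led in only 7.14% and 3.50% of the fresh 10x members and 16.8% of the stored 10x members, against 32.8% and 28.4% of the BD members. Members of the 10x libraries were thus mostly Ly6d-led or Tspan8-led cells, and members of the BD libraries were mostly Clic6-led or Hey1-led cells.

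**Figure D2:**
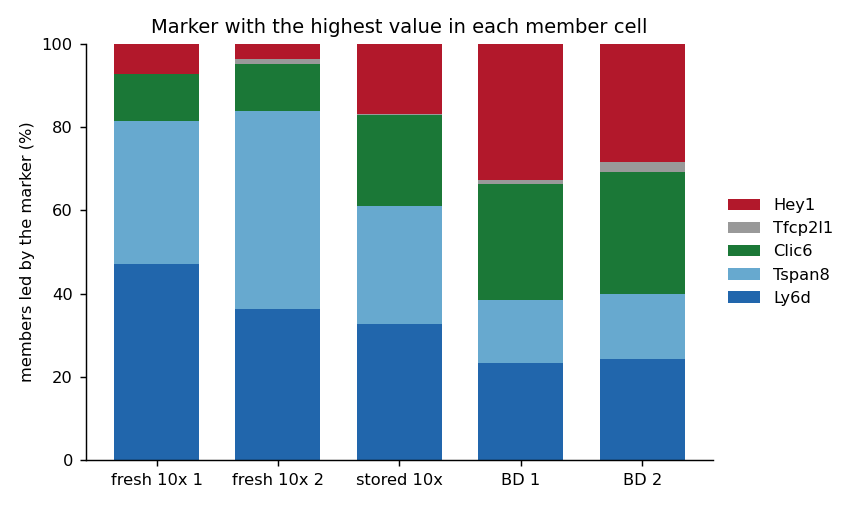
Share of members (%) in which each marker had the highest value of the 5, by library. Ly6d and Tspan8 lead most fresh 10x members, and Hey1 leads 32.8% of the BD 1 members against 7.14% in fresh 10x 1.

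Marker detection was also compared over all epithelial cells, where the 10% rule plays no part, as the share of cells expected to show a UMI when every cell is thinned to 2000 UMIs. Cells below 2000 UMIs were left out, 57 of fresh 10x 1, 75 of fresh 10x 2, 263 of stored 10x, 0 of BD 1 and 1 of BD 2. Ly6d was expected in 10.7%, 11.6%, 9.27%, 6.40% and 6.12% of the cells of fresh 10x 1, fresh 10x 2, stored 10x, BD 1 and BD 2. With all UMIs of each cell the shares were 21.4%, 22.1%, 20.7%, 15.3% and 12.8%. Both BD libraries lay below all 10x libraries on either scale, and no test was run. Tspan8 had the same order, at 22.8%, 30.3% and 19.5% in the 10x libraries and 14.1% and 14.3% in the BD libraries. Hey1 had the reverse, at 19.9%, 21.3% and 21.5% against 31.7% and 26.3%. Clic6 ranged from 25.9% to 31.7% and Tfcp2l1 from 4.91% to 6.10%, with the platforms overlapping for both.

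Free RNA sets a floor for such shares. In cells with C1q transcripts and without the epithelial gate (47 to 171 cells per library, median 5007.5 to 11814 UMIs), Ly6d was expected in 0.327% to 3.10% of thinned cells, Tspan8 in 0.298% to 1.54%, Clic6 in 0.760% to 4.39%, Hey1 in 0.468% to 2.11% and Tfcp2l1 in 0% to 0.0757%. All 5 markers stood above that floor in the epithelial cells of every library. Hey1 was also found outside the epithelium, in 6.01% to 16% of thinned cells with endothelial genes.

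Members were also chosen with 4 markers at a time, and the level of the fifth was read in them. The 5 markers were picked as a group with results of these data known, so the values are a description and carry no test. Left-out Ly6d was 4.51-fold higher in such members (log2 fold change 2.17 ± 0.11 SE). Its levels in members were 379, 686, 334, 174 and 181 CPM in the library order above, against 119, 103, 67.1, 40.1 and 43.6 CPM in the other cells. The lowest member value, 174 CPM, lay above the highest of the other cells, 119 CPM.

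Left-out Tfcp2l1 was 3.27-fold higher (log2 1.71 ± 0.09 SE), with 53.3 to 88.4 CPM in members and 19.1 to 26.1 CPM in the other cells. Left-out Tspan8 was 2.77-fold higher (log2 1.47 ± 0.11 SE) and left-out Clic6 2.68-fold (log2 1.42 ± 0.07 SE). Hey1 had the lowest value, 1.87-fold (log2 0.90 ± 0.06 SE), and its member and non-member values overlapped between platforms, with 185 CPM in the members of fresh 10x 2 and 221 CPM in the other cells of BD 1. Each was higher in 5 of 5 libraries. In these fits 16.1% of all genes were called higher for Ly6d, 17.1% for Tspan8, 15.4% for Clic6, 16.6% for Tfcp2l1 and 16.8% for Hey1. Among all genes ranked by log2 fold change, the left-out markers stood 31st (Ly6d), 73rd (Tfcp2l1), 120th (Tspan8), 121st (Clic6) and 538th (Hey1) of 13630 to 13662.

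Cell by cell the links were weak. Within 10 depth classes of a library, pairs of markers were seen together in 1.05 to 1.47 times as many cells as the product of their shares gives. Spearman correlations of their UMIs per 10000 over the epithelial cells of a library ran from 0.0485 for Ly6d and Hey1 in BD 2 to 0.413 for Tspan8 and Clic6 in fresh 10x 2. The points are cells of the same library that share depth and free RNA, so these values are given without a test.

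Tspan8 and Tfcp2l1 have a promoter among the RefSeq promoter entries used here, and their 250 bases upstream of the annotated start (RefSeq, build GRCm38.p6) are shown because both genes are markers of the rule. Capitals mark the forkhead core TGTTTAC, searched on both strands together with the core TGGGAA of the Notch factor RBPJ and the E-box CACGTG. The Tspan8 window is at chr10:115817034-115817283, plus strand, and the Tfcp2l1 window at chr1:118627695-118627944, plus strand.
Tspan8: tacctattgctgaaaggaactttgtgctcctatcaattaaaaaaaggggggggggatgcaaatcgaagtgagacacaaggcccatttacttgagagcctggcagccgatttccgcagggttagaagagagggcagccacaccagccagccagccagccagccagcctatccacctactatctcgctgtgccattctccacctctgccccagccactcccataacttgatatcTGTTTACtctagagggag
Tfcp2l1: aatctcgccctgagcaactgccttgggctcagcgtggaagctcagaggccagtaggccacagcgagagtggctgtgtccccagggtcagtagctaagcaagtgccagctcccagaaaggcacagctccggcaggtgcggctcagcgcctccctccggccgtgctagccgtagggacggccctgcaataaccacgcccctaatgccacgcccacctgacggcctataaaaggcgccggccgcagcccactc
The Tspan8 window held the forkhead core at position -18 and the Tfcp2l1 window held none of the 3 motifs. The forkhead core is in 3.17% of 32851 mouse promoter windows of this length, TGGGAA in 21.6% and CACGTG in 6.02%, and a match is a description, not a site. The gene bodies, in the GENCODE M21 annotation of the same build, are Ly6d at chr15:74762056-74763620, Tspan8 at chr10:115816832-115849893, Clic6 at chr16:92485736-92541243, Tfcp2l1 at chr1:118627945-118685168 and Hey1 at chr3:8663359-8667256, all protein-coding. The Tspan8 window lies inside that gene body, which starts upstream of the RefSeq start used for the window.

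Members differed from the other epithelial cells in many genes that the rule did not use. The tests used summed UMI counts per library, edgeR's quasi-likelihood test with the library as a block, and Benjamini-Hochberg adjustment over all genes tested. Of 13633 genes tested, 2326 were higher in members (17.1% of genes) and 2785 lower (20.4%) at an adjusted p under 0.05. At least 2-fold differences were fewer, with 284 genes higher (2.08%) and 788 lower (5.78%). The median log2 fold change over all genes was -0.01. Among cells at or below the median cell cycle level of their library, a comparison added after the data were seen, 693 of 12107 genes were higher (5.72%) and 675 lower (5.58%). All 15 named higher genes passed there as well. With the library left out of the model, 306 genes were higher and 537 lower, and without the filter on low counts the split was 1776 to 3310.

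Genes of ion and bicarbonate transport stood among the highest named genes. Slc4a4, a sodium bicarbonate cotransporter, was at 16.1, 61.0, 16.2, 30.9 and 27.8 CPM in the members of fresh 10x 1, fresh 10x 2, stored 10x, BD 1 and BD 2. It was at 2.90, 6.51, 4.33, 3.69 and 4.07 CPM in the other cells. The 2 sets did not overlap, and the difference was 6.62-fold (log2 2.73 ± 0.17 SE, edgeR adjusted p = 1.95e-07). Atp2a3, a calcium pump of the endoplasmic reticulum, was at 42.9 to 94.5 CPM in members against 8.25 to 22.9 CPM (log2 2.06 ± 0.09 SE, edgeR adjusted p = 1.60e-08). Of the fixed list of 15 chloride channel and ion transport genes, 12 were tested, 6 were higher and 2 lower, with a median log2 fold change of 0.53. Slc12a2, the sodium-potassium-chloride cotransporter (log2 0.71), Ano1, a calcium-activated chloride channel (0.68), and the water channel gene Aqp5 (0.62) were higher. Clca3a2 (-0.82) and Clic4 (-0.35) were lower, and Clic1, at -0.13, did not pass the test. Among low-cycle cells 4 were higher and 3 lower, with a median of 0.16.

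Of the 5 ionocyte genes tested, 3 were higher and 1 lower. Ionocytes are rare epithelial cells that move protons and chloride, and the forkhead factor Foxi1 directs their genes, among them the proton pump subunit Atp6v1b1. Atp6v1b1 was at 365, 377, 385, 640 and 642 CPM in the members of fresh 10x 1, fresh 10x 2, stored 10x, BD 1 and BD 2 and at 164, 180, 184, 279 and 240 CPM in the other cells. The lowest member value was above the highest other value (log2 1.19 ± 0.06 SE, edgeR adjusted p = 2.52e-08). Foxi1 was at 97.5, 155, 148, 221 and 188 CPM against 51.8, 82.4, 84.8, 94.8 and 84.6 CPM (log2 1.01 ± 0.06 SE, edgeR adjusted p = 1.91e-07), again without overlap.

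Cck, a peptide hormone gene, was higher too (log2 1.73), while Atp6v1c2, another proton pump subunit, was lower (-0.54) and Npy, a neuropeptide gene, at -0.10, did not pass the test. Only 5 of the 10 listed ionocyte genes were tested, and Foxi2 had no UMI in any member. Cells in the top 10% of their library for the ionocyte list made up 30%, 16.8%, 18.9%, 22.9% and 26.1% of the members in the same library order. The share was above the 10% of all epithelial cells in each library. Most members in each library were outside that top 10%. Among low-cycle cells 3 of the 5 tested ionocyte genes were higher and 2 lower, at a median of 0.74.

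The upstream windows of Foxi1 and Atp6v1b1 are shown because the 2 genes were higher together, with the forkhead core and TGGGAA in capitals. They are at chr11:34208090-34208339, minus strand, and chr6:83742767-83743016, plus strand, both in GRCm38.p6.
Foxi1: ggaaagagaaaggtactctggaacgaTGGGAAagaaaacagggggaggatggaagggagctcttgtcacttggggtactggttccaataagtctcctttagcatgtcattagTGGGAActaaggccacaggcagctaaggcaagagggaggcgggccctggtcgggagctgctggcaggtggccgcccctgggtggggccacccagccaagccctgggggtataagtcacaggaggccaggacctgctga
Atp6v1b1: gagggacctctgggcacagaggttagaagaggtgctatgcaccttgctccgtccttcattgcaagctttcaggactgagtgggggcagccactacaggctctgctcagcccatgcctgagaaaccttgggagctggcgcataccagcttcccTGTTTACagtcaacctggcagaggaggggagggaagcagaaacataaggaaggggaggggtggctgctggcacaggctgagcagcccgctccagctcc
Foxi1 held TGGGAA at positions -224 and -138, and Atp6v1b1 held the forkhead core at -98. Of 25 genes looked up (the markers, the named higher genes and 5 Notch and ionocyte genes), 18 matched, with 23 windows. The forkhead core was in 3 of these windows (Tspan8, Atp6v1b1 and Cck), TGGGAA in 6 and CACGTG in 1, against 3.17%, 21.6% and 6.02% of all mouse windows.

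Notch pathway genes lay on both sides. Of 24 listed genes without Hey1, 21 were tested, 7 were higher and 3 lower, and the median log2 fold change was 0.16. Both Delta-like ligands on the list, Dll1 and Dll4, were higher. Dll1 was at 33.1, 33.8, 40.5, 74.1 and 55.9 CPM in the members of fresh 10x 1, fresh 10x 2, stored 10x, BD 1 and BD 2 and at 11.5, 23.5, 13, 16.7 and 14.2 CPM in the other cells (log2 1.64 ± 0.16 SE, edgeR adjusted p = 5.58e-06). Dll4 was scarce, at 2.86 to 8.81 CPM against 1.70 to 3.36 CPM (log2 1.44).

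Both Jagged ligands and the glycosyltransferase gene Lfng, which modifies Notch receptors, were lower. Their log2 fold changes were -1.19 for Jag1, -1.95 for Jag2 and -2.47 for Lfng, all at levels below 4 CPM in either set of cells. Among receptors, Notch1 was at 121 to 171 CPM in members against 78.5 to 90.5 CPM (log2 0.76 ± 0.07 SE, edgeR adjusted p = 3.12e-06), Notch3 was higher (0.64) and so was Notch2 (0.32). The target gene Hes1 was at 243 to 380 CPM against 145 to 281 CPM (log2 0.50). Rbpj, the DNA-binding partner of all Notch receptors, was at -0.06 and the protease gene Adam10 at -0.08, neither past the test. Among low-cycle cells 4 of 20 Notch genes tested were higher and 0 lower, at a median of 0.04.

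The other named higher genes came from varied families. Hepacam2, a cell adhesion gene of the immunoglobulin family (log2 2.08), Traf1, an adaptor of the tumour necrosis factor receptors (1.64), and Ralgapa2, which inactivates Ral GTPases (1.68), were higher in all 5 libraries. Ly6k, a relative of Ly6d, was at 62.6, 15.4, 34.1, 18.3 and 14.6 CPM against 2.72 to 9.17 CPM (log2 2.38). The remaining named higher genes were 4930469K13Rik (3.0), Dppa1 (2.98), Colca2 (1.66), Zfp385b (1.62) and Gm16025 (1.61).

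Some of these differences rested on few cells. Amtn, the gene of an enamel protein, had the highest log2 fold change (3.45 ± 0.24 SE, edgeR adjusted p = 3.72e-07). It was at 43.7, 379, 44.6, 110 and 58.9 CPM in members, far higher in fresh 10x 2 than elsewhere, against 6.58 to 15 CPM. Only 13% of members had an Amtn UMI, and the 10 members with the most held 57.9% of the UMIs. The top 10 members held 51.0% of the UMIs of 4930469K13Rik and 48.0% of Dppa1, but 11.4% of Traf1.

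**Figure D3:**
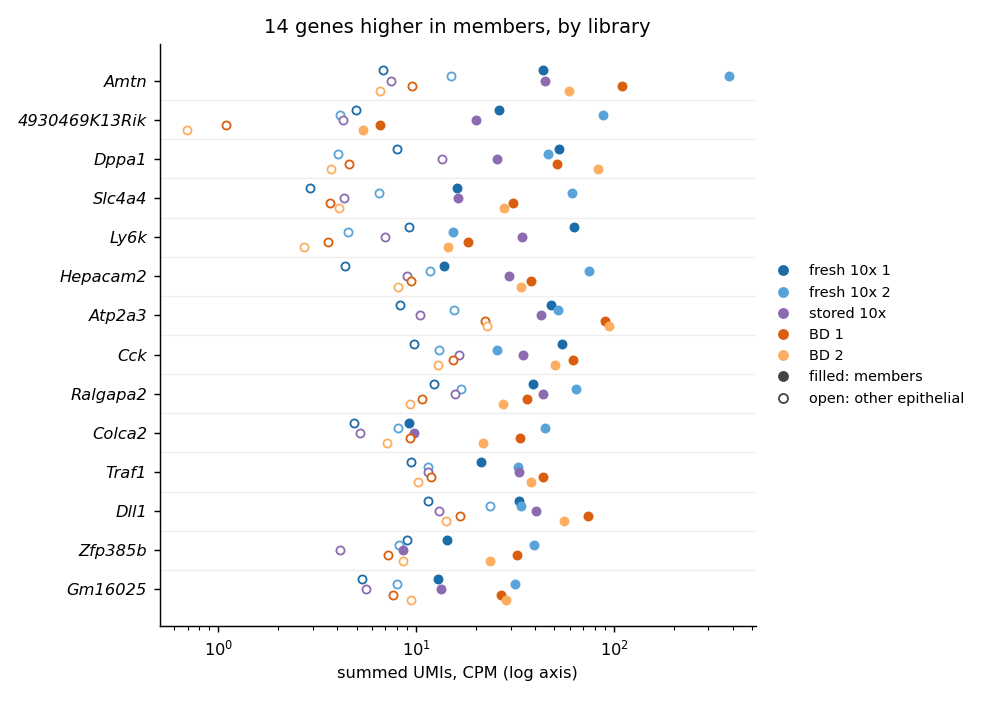
Summed UMIs in CPM (log axis) of 14 named genes higher in members, for members (filled) and other epithelial cells (open) in each library (colours). In every library the members lie above the other cells, and Amtn in fresh 10x 2 stands apart at 379 CPM.

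Cell cycle genes were the group most uniformly lower. All 20 listed genes were tested and all 20 were lower, with a median log2 fold change of -2.41, against -0.01 over all genes. Their summed level was 166 to 328 CPM in members and 1094 to 1341 CPM in the other cells. Of the 15 named lower genes, 13 act in DNA replication or mitosis. The ribonucleotide reductase subunit gene Rrm2 was at 7.82, 3.59, 7.87, 4.20 and 7.11 CPM in the members of fresh 10x 1, fresh 10x 2, stored 10x, BD 1 and BD 2. In the other cells it was at 67.3, 71.9, 60.1, 56.2 and 66.5 CPM (log2 -3.33 ± 0.13 SE, edgeR adjusted p = 6.54e-09).

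The named mitotic genes were Hmmr (-3.26), Ccnb2 (-3.19), Tpx2 (-3.08), Ube2c (-3.01), Cdca3 (-2.93), Ccna2 (-2.84), Cdk1 (-2.82), Ccnb1 (-2.73), Cenpe (-2.71), Cdc20 (-2.64) and Pbk (-2.61), with the replication gene Pclaf at -2.61. Typical cells of both kinds had few such UMIs. The median cell had 0.854 to 1.41 cell cycle UMIs per 10000 among members and 1.38 to 1.70 among the other cells. Members among the top 10% of their library for the cell cycle list made up 0.714%, 0%, 1.68%, 1.19% and 1.52% of members in fresh 10x 1, fresh 10x 2, stored 10x, BD 1 and BD 2. With members chosen within depth classes, 20 of 20 genes were still lower, at a median of -2.04. Among cells at or below the median cell cycle level, where the rule of that comparison used the list, 12 were tested and 0 passed. Whether cell cycle had a part in the other differences was not tested, and the low-cycle values stand beside the main gene groups.

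Milk protein genes fell into 2 kinds. Of 10 tested, 6 were lower, 1 higher and 3 did not pass, with a median of -0.74. Glycam1, a milk mucin gene, was at 3.68, 0, 2.62, 3.6 and 2.71 CPM in the members of fresh 10x 1, fresh 10x 2, stored 10x, BD 1 and BD 2. The other cells held 139, 110, 130, 67.7 and 61.3 CPM (log2 -5.21 ± 0.20 SE, edgeR adjusted p = 6.54e-09). Csn2, the beta-casein gene, was at 29.7 to 406 CPM against 714 to 1450 CPM (log2 -3.20 ± 0.41 SE, edgeR adjusted p = 5.15e-05). Detection differed far less than the sums. A Glycam1 UMI was seen in 2.92% of members and 5.02% of the other cells, and a Csn2 UMI in 27.0% and 34.8%. Most cells of both kinds thus had no UMI of either gene. Wap (-2.42), Csn1s2a (-2.30) and Csn1s1 (-1.14) were lower as well, and so was Wfdc18 (-0.34).

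The most abundant milk genes showed no such difference. Csn3 was at 12224 to 20681 CPM in members and 13371 to 17703 CPM in the other cells (log2 0.06), and Lalba (0.05) and Trf (0.16) did not pass the test either. Btn1a1, a membrane protein of milk fat droplets, was higher (0.30). Among low-cycle cells, 6 of the 10 were lower and 0 higher, at a median of -1.47. Csn2 was unevenly spread, with 76.2% of its member UMIs in 10 cells.

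Immediate early genes, which respond within minutes to growth signals and to tissue digestion, were all higher. All 13 listed genes passed the test, with a median log2 fold change of 0.60 and a summed level of 25945 to 30868 CPM in members against 16194 to 19263 CPM. Fos was at 5570.4, 6322, 5418, 5269 and 4419 CPM in members and 3758, 3839.5, 3108, 2911 and 2628 CPM in the other cells (log2 0.75 ± 0.05 SE, edgeR adjusted p = 3.01e-07). Zfp36 (0.83), which destabilises messenger RNAs, and Atf3 (0.80), a stress-induced transcription factor, were higher, as was Junb (0.66). The difference was present in the typical cell, with medians of 236 to 298 UMIs per 10000 in members and 130 to 173 in the other cells. Among low-cycle cells 8 of 13 were higher, at a median of 0.32.

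Interferon-stimulated genes were higher, 11 of 12 tested, at a median of 0.75. Ifi27l2a was at 111, 212, 48.6, 22.5 and 25.7 CPM in the members of fresh 10x 1, fresh 10x 2, stored 10x, BD 1 and BD 2 against 24.0, 49.5, 27.9, 18.9 and 13.1 CPM (log2 1.39 ± 0.23 SE, edgeR adjusted p = 0.000333). Ifit3 (1.36), Ifit1 (1.26) and Usp18 (1.19) were higher, and Bst2, at 0.36, did not pass. All 4 had their highest member value in fresh 10x 2. Among low-cycle cells 8 of 12 were higher, at a median of 0.45.

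Of 13 genes of glycolysis and the hypoxia response, 7 were higher and 1 lower, at a median of 0.33. Aldoa, the glycolytic aldolase gene, was at 2225, 4841, 2279, 4161 and 3409 CPM in members and 1236, 1381, 1117, 1492 and 1257 CPM in the other cells (log2 1.33 ± 0.11 SE, edgeR adjusted p = 1.03e-06). The sets did not overlap. Slc2a1, a glucose transporter (0.59), Bnip3 (0.57) and Ldha (0.55) were higher, Egln3, an oxygen sensor, was lower (-0.51), and Pgk1, at -0.21, did not pass. Among low-cycle cells 4 of 13 were higher and 1 lower, at a median of 0.12, and within depth classes 7 were higher and 2 lower.

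Lineage genes did not place the members in a single mammary class. Of 8 luminal progenitor genes, Kit (0.63), Ehf (0.34) and Cd14 (0.30) were higher and Aldh1a3 (-1.01) and Krt7 (-0.67) lower, with a median of 0.03. Among low-cycle cells 1 was higher, Kit, and 2 were lower. Of 10 hormone-sensing genes tested, 6 were lower and 2 higher, and the 2 higher were also the most abundant, Gata3 (0.52) and Prlr (0.26). Gata3, a luminal transcription factor, was at 323 to 523 CPM in members against 239 to 326 CPM. The lower ones, Areg (-4.26), Tbx3 (-2.49), Cited1 (-2.05), Wnt4 (-2.04), Foxa1 (-1.19) and Prom1 (-0.82), were at or below 30.7 CPM in either set, and the receptor genes Esr1 and Pgr did not pass.

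Basal genes were lower where they differed, 6 of 9 tested and none higher, among them the basal keratins Krt17 (-4.02), Krt5 (-1.71) and Krt14 (-1.60). Krt5 went the other way in stored 10x, at 13.1 CPM in members and 9.82 CPM in the other cells. The transcription factor gene Trp63, which marks basal cells, did not pass (-0.30). Their summed level was 29.1 to 99.4 CPM in members and 72.9 to 248 CPM in the other cells. Of 8 squamous genes tested, 5 were lower, and the desmosome gene Dsp was higher (0.58). Among low-cycle cells 6 were tested, 2 were lower and 1 higher. Of 7 stem cell genes tested, Sox9 (0.82), Lgr5 (2.11) and Itga6 (0.17) were higher, Bcl11b was lower (-1.41) and 3 did not pass, at a median of 0.09. Lgr5 was at only 1.35 to 4.61 CPM in members, and among low-cycle cells 1 gene, Sox9, was higher and 0 lower.

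**Figure D4:**
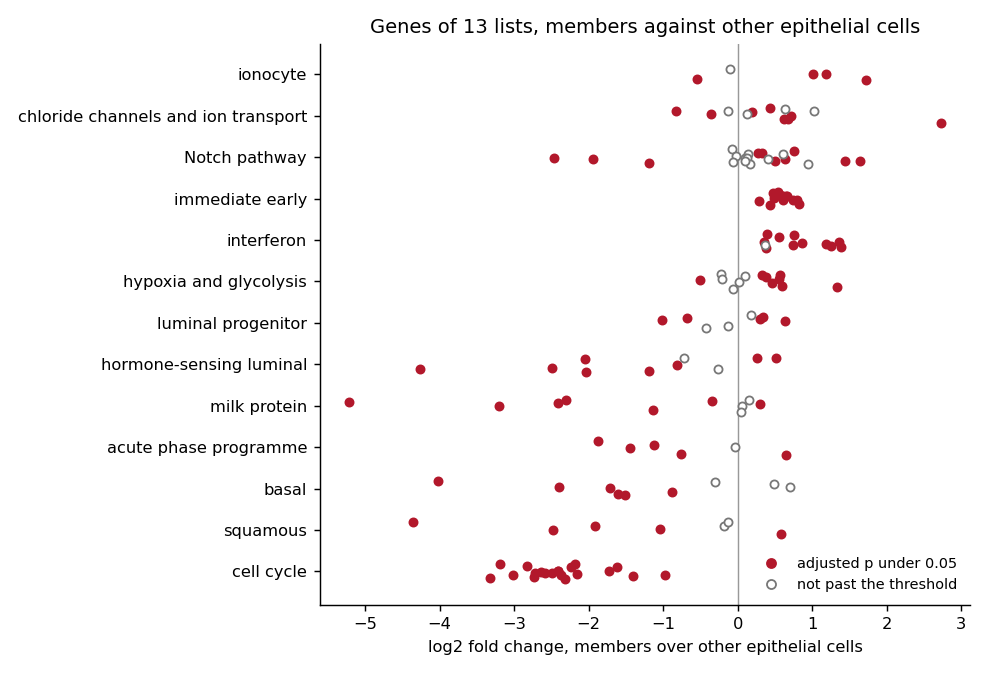
Log2 fold change of members over other epithelial cells for each tested gene of 13 fixed lists, with red points for genes past an adjusted p of 0.05 and genes without any UMI in members left out. All cell cycle genes lie left of 0 and all immediate early genes right of 0, while Notch and luminal progenitor genes fall on both sides.

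Acute phase genes were lower, 4 of 6, among them Ltf (-1.45), Saa2 (-1.13) and Saa1 (-0.76), while Cyp24a1, which inactivates vitamin D, was higher (0.65) and Lcn2, at -0.03, did not pass. Of 3 salivary-type secretory genes tested, Scgb2b27 was higher (0.90), at 805 to 1795 CPM against 490 to 1008 CPM, Pip was lower (-2.01) and Scgb1b27, at -1.32, did not pass. Among low-cycle cells neither Scgb2b27 (0.25, edgeR adjusted p = 0.143) nor Cyp24a1 (0.42, edgeR adjusted p = 0.206) passed, 4 of 6 acute phase genes were lower, and Pip and Scgb1b27 were lower. Within depth classes Pip was at -0.93 and did not pass. In each library the level of Scgb2b27 was higher in members that Tspan8 led than in those that Ly6d, Clic6 or Hey1 led, a grouping chosen after the values were seen and given without a test. It stood there at 5074, 2488.5, 1899, 2682 and 1483.5 CPM in fresh 10x 1, fresh 10x 2, stored 10x, BD 1 and BD 2. In Ly6d-led members of the same libraries it stood at 458, 1056, 332, 690 and 364 CPM. In Clic6-led members it stood at 291, 1560.3, 425, 1478 and 946 CPM, and in Hey1-led members at 318, 317, 872, 2059.8 and 698 CPM, so in BD 1 it was also abundant outside the Tspan8-led members. Foxi1, in contrast, averaged 147 CPM over the libraries in the 338 Ly6d-led members, 157 in the 279 Tspan8-led, 152 in the 246 Clic6-led and 182 in the 223 Hey1-led members. Hey1 led only 10 members of fresh 10x 1 and 5 of fresh 10x 2, where Foxi1 was at 69.2 and 231 CPM. Values of both genes in those 2 groups thus rest on few cells.

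Cells with 2 or more markers of another lineage made up 31.4%, 14.7%, 37.4%, 39.9% and 24.6% of the members in the library order above, against 30.7%, 27.4%, 42.1%, 52.9% and 33.4% of the other cells. Immune markers summed to 11.3 to 21.7 CPM in members and 16.8 to 87.7 CPM in the other cells, with 6 of 9 tested genes lower and Cd79b and Ms4a1 at 0 in all members. Endothelial markers summed to 4.20 to 9.66 CPM against 4.71 to 26.2 CPM (2 of 7 lower), fibroblast markers to 62.5 to 148 CPM against 70.2 to 390 CPM (5 of 6 lower) and mural markers to 5.01 to 7.82 CPM against 3.47 to 13.9 CPM (1 of 4 lower). None of these lists had a gene higher in members. Within depth classes 5 of 7 endothelial and 0 of 4 mural genes were lower, and among low-cycle cells 2 of 6 immune and 1 of 5 endothelial genes. The median cell had 0.735, 0.568 and 1.28 fibroblast UMIs per 10000 among the members of the 10x libraries against 0.590, 0.440 and 1.09 among the other cells, the opposite order to the sums. In the BD libraries it had 1.11 and 0.912 against 1.24 and 0.946. MHC class II genes were lower, 3 of 4, with Cd74 at -1.76. With cells carrying 2 or more markers of another lineage left out, 1298 genes were higher and 1589 lower, and 2769 of the 5111 calls were made again in the same direction. That comparison has fewer cells.

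Members overlapped other programmes to unequal extents. Hormone-sensing scores placed 15.4% to 18.6% of the members of a library in the top 10%, salivary-type scores 12.1% to 21.7% and interferon scores 10.7% to 20.3%. Basal scores placed 2.80% to 7.74% there and acute phase scores 2.10% to 6.82%. The hormone-sensing share lay above 10% although 6 genes of that list were lower in the sums. Its 2 higher genes, Gata3 and Prlr, were its most abundant.

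**Figure D5:**
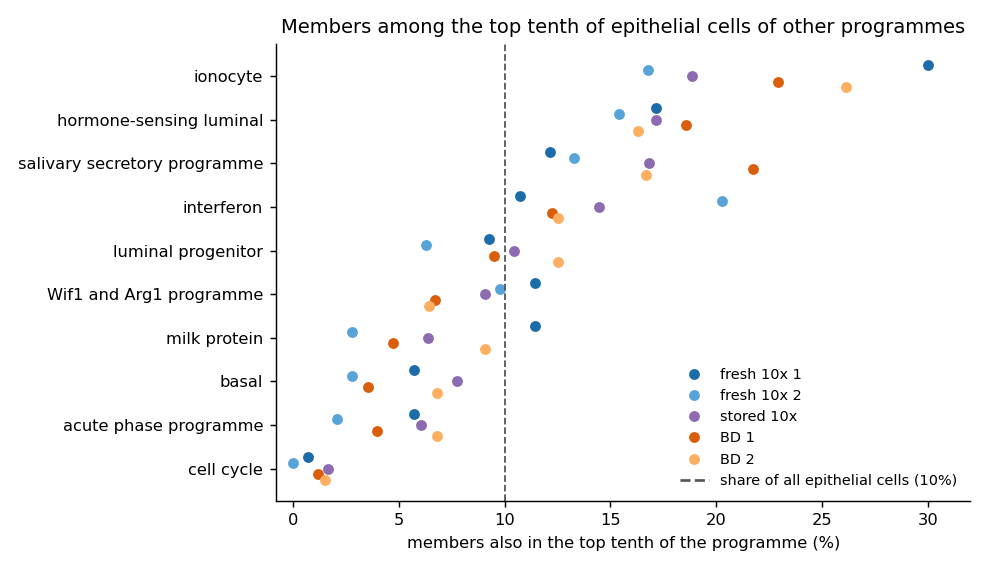
Share of members (%) that were also in the top 10% of epithelial cells for 10 other gene lists, 1 point per library, with a dashed line at the 10% that holds for all epithelial cells. Ionocyte shares run from 16.8% to 30% and cell cycle shares from 0% to 1.68%.

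Members resembled each other more than other cells in genes outside the rule. On a graph of 15 nearest neighbours built within each library from 2000 variable genes without the 8 rule genes, 25.7%, 34.3%, 27.1%, 29.7% and 32.5% of a member's neighbours were members in fresh 10x 1, fresh 10x 2, stored 10x, BD 1 and BD 2. For the other cells the shares were 6.1% to 9.1%. Only 6.4% to 22.4% of members had mostly members as neighbours, and 7.2% to 9.9% had none. These values are given without a test.

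The difference of members from other epithelial cells was compared between platforms and between storage states as an interaction term. For platform, 0 of 13633 genes passed (0% called, smallest edgeR adjusted p = 0.275), with 743 genes (5.45%) at an unadjusted p under 0.05 and 0 calls by DESeq2. For storage, with stored 10x against the fresh 10x pair and 1 residual degree of freedom, 5 of 13686 genes passed in edgeR (0.0365%) and 3 in DESeq2. These were Krt5, Car6, Ube2c, Slpi and Cartpt. The stored arm is 1 library, so storage and that library cannot be told apart.

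Members themselves were compared between groups. Stored 10x members against fresh 10x members gave 0 of 10975 genes (0% called, smallest edgeR adjusted p = 0.0680), with 749 at an unadjusted p under 0.05 and 11 calls by DESeq2. The spread came from the 2 fresh libraries alone, which limits what could be called. BD 1 members against fresh 10x members gave 932 genes higher (8.49%) and 1154 lower (10.5%) in edgeR, and 138 and 428 in DESeq2. Interferon genes were lower in the BD 1 members, 6 of 12 and none higher, at a median of -1.35 against 0.01 over all genes. Isg15 was at 51.0 CPM in BD 1 members and 93.4 and 271 CPM in fresh 10x members, and the other epithelial cells had the same order, 37.4 CPM against 80.3 and 119 CPM.

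Notch3 was higher in BD 1 members, at 73.2 CPM against 20.7 and 19.5 CPM (log2 1.65 ± 0.23 SE, edgeR adjusted p = 0.00547), and so was Dll1 (0.93). Cd74 was higher as well (1.77), at 18.3 CPM against 4.6 and 4.61 CPM. None of these genes passed the platform term above, where 0 of 13633 genes did, so a shift particular to members was not called. The BD 1 group is 1 library, so this test cannot tell platform and that library apart. The 10 genes named by size for this comparison had edgeR adjusted p-values from 0.00117 to 0.00928. Btg3, an antiproliferative gene, was at 42.3 CPM in BD 1 members and 0.460 and 1.54 CPM in fresh 10x members, and at 42.1 CPM against 1.34 and 1.43 CPM in the other cells. Isoc2a was at 27.0 CPM against 0.460 and 0.513 CPM in members, and Gm15564 and Hgs had no UMI in the fresh 10x members and stood at 43.5 and 33.9 CPM in BD 1 members. In the other BD 1 cells Isoc2a, Gm15564 and Hgs stood at 23.7, 29.8 and 33.6 CPM. The other cells of the fresh 10x libraries held 0 to 0.599 CPM of these genes. Outside this test, the BD 2 members held 29.1, 42.0 and 23.0 CPM of Isoc2a, Gm15564 and Hgs. The stored 10x members held 1.19, 0 and 0 CPM of them. Btg3 was at 35.6 CPM in BD 2 members and 5.96 CPM in stored 10x members. Rnaset2a, Gm17056 and Cd27 had no UMI in BD 1 members and stood at 0.0978, 0.0244 and 0.196 CPM in the other BD 1 cells. They had no UMI in BD 2 members either, and stood at 35.8, 23.4 and 22.4 CPM in stored 10x members. Igkc, an immunoglobulin gene, was at 27.9 CPM in BD 1 members and 155 CPM in the other BD 1 cells, and AC160336.1 was at 0.300 CPM against 32.7 and 79.4 CPM in the fresh 10x members. These 2 genes did not separate stored 10x from BD 2 members. Igkc was at 9.78 and 11.5 CPM there, and AC160336.1 at 2.62 and 1.35 CPM.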

How the data were processed

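The authors deposited raw UMI counts per gene and cell as sparse matrices. Per the submitters' processing notes, mm10 and Cell Ranger 3.0.1 were used, with no statement of which step or platform they apply to. 5 matrices were read, 1 per sample, after merging of gene spellings to 41028 names. Deposited subset and pooled matrices were not used here. No doublets were called and no cell filter was applied beyond the epithelial gate. The members and the 26 gene lists were chosen with earlier results of these data known.

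UMI counts of members and of other epithelial cells were summed per library and tested with edgeR 4.0.16 (quasi-likelihood, TMM scaling, filterByExpr, library as a block, Benjamini-Hochberg adjustment) in R 4.3.3. Comparisons of members between groups used fresh 10x 1 and 2, stored 10x and BD 1 in 1 fit without a block. DESeq2 1.42.0 was an alternative. Other alternatives changed the score cut (80th or 95th percentile), depth matching, cell quality (from 2000 UMIs up, mitochondrial share up to 20%), the gate (30 UMIs per 10000), comparison cells, the block and the libraries. Fits were tested on simulated data. The 8 rule genes stayed in the fit and are described without a test, also where 1 marker was left out of the score. Named genes are the 15 highest and 15 lowest log2 fold changes with an adjusted p under 0.05, the same direction in 5 libraries and at least 20 CPM in the higher set, without rule genes and other-lineage genes, 5 each way for other comparisons, plus list genes as examples. CPM of a 3' assay are not corrected for gene length, so levels are compared within a gene. Neighbours were found with scanpy 1.11.5 on 30 principal components. Intervals are exact binomial and cover counting error only. Some genes that the naming rule gave are not reported here.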

Additional observations from a re-analysis of the deposited data

Results flagged for a closer look

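In 5 genes the difference between members and other epithelial cells itself differed between stored 10x and the fresh 10x pair, by an interaction term in edgeR with 1 residual degree of freedom. The stored arm is 1 library, so its spread is assumed to be that of the fresh pair, and storage and the library cannot be told apart. Krt5, a basal keratin gene, had a term of 5.81 ± 0.58 SE on the log2 scale (edgeR adjusted p = 0.00427). It was at 0.460 CPM in members and 22.5 CPM in other cells in fresh 10x 1, at 0.513 and 18.7 CPM in fresh 10x 2, and at 13.1 and 9.82 CPM in stored 10x. The members of fresh 10x 1 and 2 held 2174009 and 1951002 UMIs of all genes. Their Krt5 values, and with them the size of the term, thus rest on very few UMIs. Car6, a secreted carbonic anhydrase gene, had a term of -1.73 ± 0.20 SE (adjusted p = 0.00608). Outside this test, Car6 was at 217 CPM in members and 222 CPM in other cells of BD 1, and at 162 and 255 CPM in BD 2. In the 10x libraries it was at 581 and 334 CPM in fresh 10x 1, 688 and 491 CPM in fresh 10x 2, and 91.6 and 195 CPM in stored 10x. Members were thus above the other cells in the fresh 10x libraries and below them in the stored one. Ube2c, a mitotic gene, had a term of 2.45 ± 0.28 SE. Outside this test, Ube2c was at 27.0 CPM in members and 136 CPM in other cells of BD 1, and at 15.9 and 159 CPM in BD 2. In fresh 10x 1, fresh 10x 2 and stored 10x it was at 6.90 and 165, 6.15 and 168, and 30.05 and 140 CPM. Slpi, a protease inhibitor gene, had a term of 1.82 ± 0.24 SE (edgeR adjusted p = 0.0204), with 19.3 and 104, 9.23 and 45.5, and 114 and 169 CPM. Cartpt, a neuropeptide gene, had a term of 4.74 ± 0.65 SE. It was at 0.460 CPM in members and 0.830 CPM in other cells in fresh 10x 1, and at 1.54 and 190 CPM in fresh 10x 2. In stored 10x it was at 9.78 and 32.8 CPM. Members were thus below the other cells in each of these libraries, and the other cells of the fresh pair were themselves far apart.

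With members chosen within depth classes the Ube2c term was 1.41 (edgeR adjusted p = 0.0839). In DESeq2 the Cartpt term was 2.62 and the Slpi term 1.80, neither past the threshold.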

How the results depend on the processing

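Members against other epithelial cells gave 5111 genes. The count was 2887 without cells carrying markers of another lineage, 3364 with a gate of 30, 2557 with the 10x libraries alone, 843 without the library term and 1368 among low-cycle cells, an alternative chosen after seeing the data. These settings have fewer cells or libraries or a wider spread. Leaving out 1 library gave 3953 to 5058 genes. In any of 18 alternatives at most 1 of the 5111 genes was called in the opposite direction. Of 533 values of the 30 named genes under alternatives, 527 kept their direction and call, and the 6 others were cell cycle genes in low-cycle cells, a set chosen by such genes. All 45 alternative values of the left-out markers kept their direction (Ly6d 1.94 to 2.30, Hey1 0.80 to 0.94).

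The platform term gave 89 genes without the filter, 2 with depth classes and 0 to 19 with a library left out (19 without fresh 10x 2). The storage term gave 3 in DESeq2, 58 without the filter and 11 with depth classes. Stored against fresh members gave 11, 213 and 69 in the same order, against 0, and BD 1 against fresh members 566, 3148 and 3349, against 2086; the cause was not tested. Marker detection averaged over libraries rose from thinned to all UMIs from 8.81% to 18.5% for Ly6d, 20.2% to 46.1% for Tspan8, 28.9% to 64.9% for Clic6, 5.58% to 23.0% for Tfcp2l1 and 24.1% to 61.2% for Hey1, since deeper cells show more genes. No paired analysis was possible beyond the library block because the labels give replicate numbers that pair no libraries between the groups, of which 1 alone has 2 libraries. Leaving out a fresh 10x library from the group comparisons leaves no residual degrees of freedom, so no test was run. Genes below about 20 CPM rest on few UMIs in members.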

Other observations

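Tetraspanins other than Tspan8 were divided. Of 21 tested, 8 were higher and 5 lower, with a median of 0.07. Over all genes tested 17.1% were higher and 20.4% lower, and the counts of this section are to be read beside those shares. Tspan5 had the highest value (log2 0.76, at 36.3 to 67.1 CPM in members and 27.8 to 34.5 CPM in the other epithelial cells), and Cd81 (0.43) and Cd63 (0.40), abundant tetraspanins of the plasma membrane and of endosomes, were higher. Tspan1 was lower in all 5 libraries, at 17.7 to 30.2 CPM against 43.9 to 70.9 CPM (-1.26), and Cd151, a partner of integrins, was lower (-0.34). Among cells at or below the median cell cycle level of their library, 2 of 19 tetraspanins were higher, Tspan5 among them, and 3 were lower, while Cd81 (0.14) and Cd63 (0.11) did not pass. Within depth classes 9 of the 21 were higher and 3 lower. In the Ly6 family, Ly6e was higher (0.58), at 1824 to 5016 CPM against 1379 to 3300.3 CPM, and Ly6a, known as Sca-1, was lower (-1.30), at 14.6 to 27.2 CPM against 36.1 to 79.6 CPM.

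Of 15 junction genes tested, 3 were higher, 2 lower and 10 did not pass, so as a list they did not stand out from all genes (17.1% higher, 20.4% lower). Cldn10, a claudin that forms ion-selective pores, was at 156, 83.5, 114, 124 and 122 CPM in the members of fresh 10x 1, fresh 10x 2, stored 10x, BD 1 and BD 2 and at 44.6, 43.2, 44.9, 38.3 and 38.2 CPM in the other cells (log2 1.52 ± 0.10 SE, edgeR adjusted p = 1.90e-07). Cldn4 was lower (-0.44). Of the CP2 and Grainyhead factors beside Tfcp2l1, Tfcp2 (0.45) and Grhl2 (0.36) were higher and 3 did not pass. Among low-cycle cells 0 of 4 passed in edgeR, with Grhl2 at 0.29 and Tfcp2 at 0.37, and within depth classes Grhl2 alone was higher. Of 8 genes of mesenchymal transition, Snai1 was higher (0.53) and Fn1 (-1.06), Zeb2 (-1.74) and Twist1 (-1.87) were lower, of which Fn1 alone passed within depth classes.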
